A study of Homo sapiens with 12 samples.

Results

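The comparison described here sets A375 cells given the BET bromodomain inhibitor OTX015 directly against A375 cells given the MNK kinase inhibitor SEL201. Its members are the 3 OTX015 libraries and the 3 SEL201 libraries, 6 of the 12 libraries in the series, chosen by their treatment labels and paired by the replicate number N1 to N3 that the labels carry. A375 is an established human melanoma cell line with a mutant BRAF kinase, grown in medium with serum, and all 4 groups are this 1 line. The OTX015 group received 50 nM OTX015, the SEL201 group 2.5 µM SEL201, the COMBO group both agents, and the UNTREATED group the solvent DMSO. Every group has 3 libraries, and the labels give a treatment time of 72 h for all of them. The doses of the agents differ and were not matched by any measure of target inhibition given in the labels, so each difference below is between these doses. The labels do not say whether N1 to N3 were separate cultures, and the p-values below speak of library-to-library spread only, part or all of which may be technical.

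BET proteins bind acetylated lysines on histones and recruit the elongation kinase P-TEFb and Mediator to promoters and enhancers, and BET inhibitors displace them from chromatin. The kinases MNK1 and MNK2 lie downstream of ERK and p38 and phosphorylate the cap-binding protein eIF4E, which bears on the translation of a subset of mRNAs. The libraries measure poly(A) RNA, so translation was not measured.

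Totals over the genes in the table ran from 18917153 to 21834086 reads in the OTX015 libraries and from 16382375 to 22626418 in the SEL201 libraries. The table holds 8579 genes whose mean count lies between 78.67 and 9158.7, so very abundant and scarce mRNAs were not analysed here, and CPM below is a count scaled to the library's total over these genes. MYC, BRD2, BRD3, EIF4E and MKNK2 are among the genes not analysed here. Of the melanocytic markers, MITF, PMEL, MLANA and S100B were measured, and TYR and SOX10 were not analysed here. MITF was at a mean of 147 CPM under either agent, whereas PMEL was at 4.0 CPM in SEL201 and 5.04 in OTX015 and MLANA at 5.89 and 4.77 CPM. Of 15 markers of other cell types, 4 were measured. Their summed level was 79.8 to 89.0 CPM in SEL201 and 59.5 to 62.3 CPM in OTX015 libraries, and its part in the results was not tested.

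The cells under OTX015 and under SEL201 differed in expression of a large part of the measured genes, mostly by small amounts. With edgeR's quasi-likelihood test and the replicate number as a block, 1604 genes were higher in OTX015 than in SEL201 (18.7% of 8579) and 1810 were lower (21.1%) at an adjusted p under 0.05. The median size of a called difference was 0.26 on the log2 scale. Among larger differences the direction was uneven. At 1.5-fold or more, 78 genes were higher and 354 lower in OTX015, so 81.9% of these 432 genes were lower. At 2-fold or more, 5 genes were higher and 76 lower. The median log2 difference over all genes was 0 under the scaling used, and the scaling fixes that centre. The CPM ranges of the OTX015 and SEL201 libraries did not overlap for 3368 genes (39.3%), of which 2730 were called. Without the replicate block 893 genes were higher and 1125 lower, and all of those 2018 genes were also called with it. PRR16, with a log2 difference of -0.40, lay just inside the threshold and PSMC3IP, at -0.11, just outside it.

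**Figure D1:**
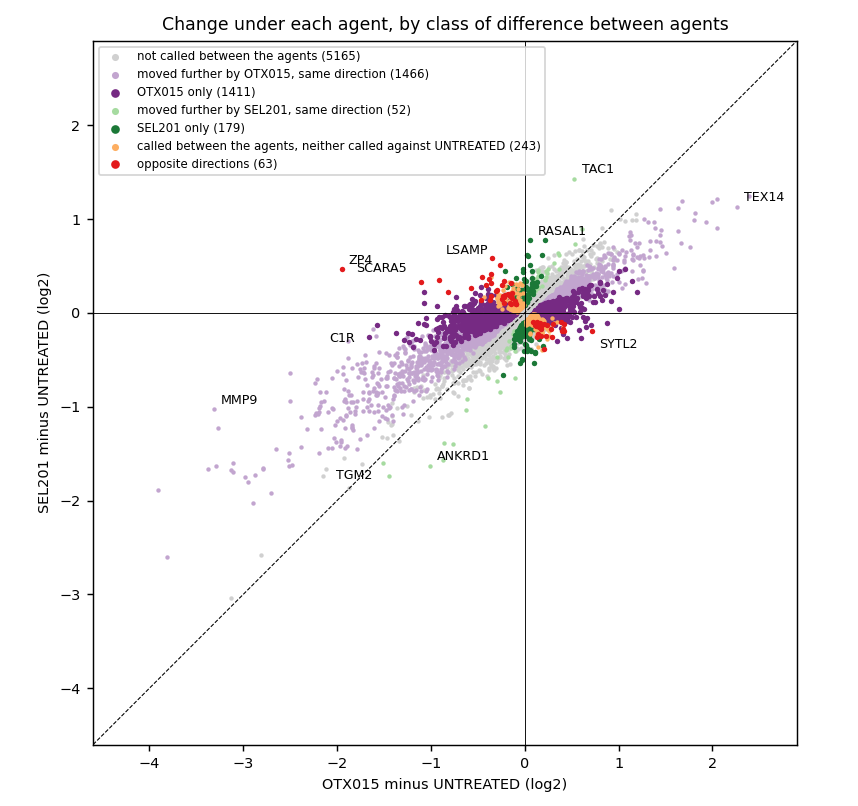
Each point is 1 of 8579 genes, with its log2 difference from UNTREATED under OTX015 on the horizontal axis and under SEL201 on the vertical axis. Colours give the class of the difference between the agents and numbers in the key count the genes. The dashed diagonal marks equal change. Both axes use the same UNTREATED libraries. Most coloured points lie nearer the horizontal axis than the diagonal, with 63 genes of opposite direction in red and 52 genes moved further by SEL201 in light green.

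The genes with the largest deficit in OTX015 relative to SEL201 included secreted and matrix proteins. MMP9, the gelatinase that degrades type IV collagen, was at 444, 393 and 637 CPM in SEL201 N1, N2 and N3 and at 87.3, 75.5 and 144 CPM in OTX015. The groups did not overlap, and the difference was -2.29 ± 0.05 on the log2 scale (SE, adjusted p = 9.8e-25). UNTREATED libraries averaged 1012 CPM, so both agents lowered MMP9 and OTX015 lowered it further. SULF1, which trims sulfate from heparan sulfate chains, was at 84.6, 85.7 and 82.6 CPM in SEL201 and 30.2, 31.7 and 28.5 CPM in OTX015 (-1.49). FDCSP, a small secreted protein first found in follicular dendritic cells, was at 432, 355 and 612 CPM in SEL201 and at 150, 132 and 230 CPM in OTX015 (-1.46). All 3 OTX015 libraries were below all 3 SEL201 libraries for each of these genes. FDCSP was also called as slightly lowered by SEL201 against UNTREATED (-0.17), a call lost without SEL201 N2 (adjusted p = 0.072) or UNTREATED N2 (0.14) and without the replicate block (0.71).

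Cytokine, receptor and enzyme genes showed deficits of like size. IL37, an anti-inflammatory cytokine of the interleukin-1 family, was at 9.02 to 9.41 CPM in SEL201 and 2.10 to 2.53 CPM in OTX015 (-2.04 ± 0.17). KRT7, a keratin of simple epithelia, was at 5.76, 7.06 and 14 CPM against 1.53, 2.19 and 2.64 CPM (-2.02). NNMT, which methylates nicotinamide, was at 58.4 to 64.5 CPM in SEL201 and 17.9 to 25.8 CPM in OTX015 (-1.51), from an UNTREATED mean of 186 CPM. The axon guidance semaphorin SEMA5A (-1.71), the receptor phosphatase PTPRB of vascular endothelium (-1.65), the tetraspanin TSPAN18 (-1.86) and SHISAL1 (-1.59) followed. The largest deficit of all was that of ZP4, an egg-coat glycoprotein, which is described with the genes of opposite direction.

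Genes higher in OTX015 differed by less. LMO2, a LIM-domain partner of transcription factors in blood development, was at 60.8, 67.6 and 70.2 CPM in SEL201 and 138, 145 and 148 CPM in OTX015, a log2 difference of 1.12 ± 0.05 (adjusted p = 2.3e-16). TBX10, a T-box transcription factor, was at 149, 193 and 190 CPM against 308, 389 and 334 CPM (0.96), and HEY2, a Notch target and transcriptional repressor, was at 19.1 to 20.4 against 33.6 to 40.4 CPM (0.89). TEX14, a protein of germ-cell bridges, differed by 1.13, the adaptor AFAP1L2 by 1.07, the lipid-kinase scaffold EFR3B by 0.98 and the poly(A) polymerase FAM46C by 0.92. Each of these genes was also raised by SEL201 against UNTREATED, so they are genes that both agents raised and OTX015 raised further. For EFR3B the SEL201 call (0.32) was lost without SEL201 N2 (adjusted p = 0.48), SEL201 N3 (0.071), UNTREATED N1 (0.18) or UNTREATED N2 (0.088), and for HEY2 (0.37) without SEL201 N3 (0.11) or UNTREATED N3 (0.31). Without the replicate block neither SEL201 call stood (adjusted p = 0.27 and 0.12). PIWIL2, TRABD2B, IQCD and SYTL2 differed by like amounts and belong to the classes below.

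**Figure D2:**
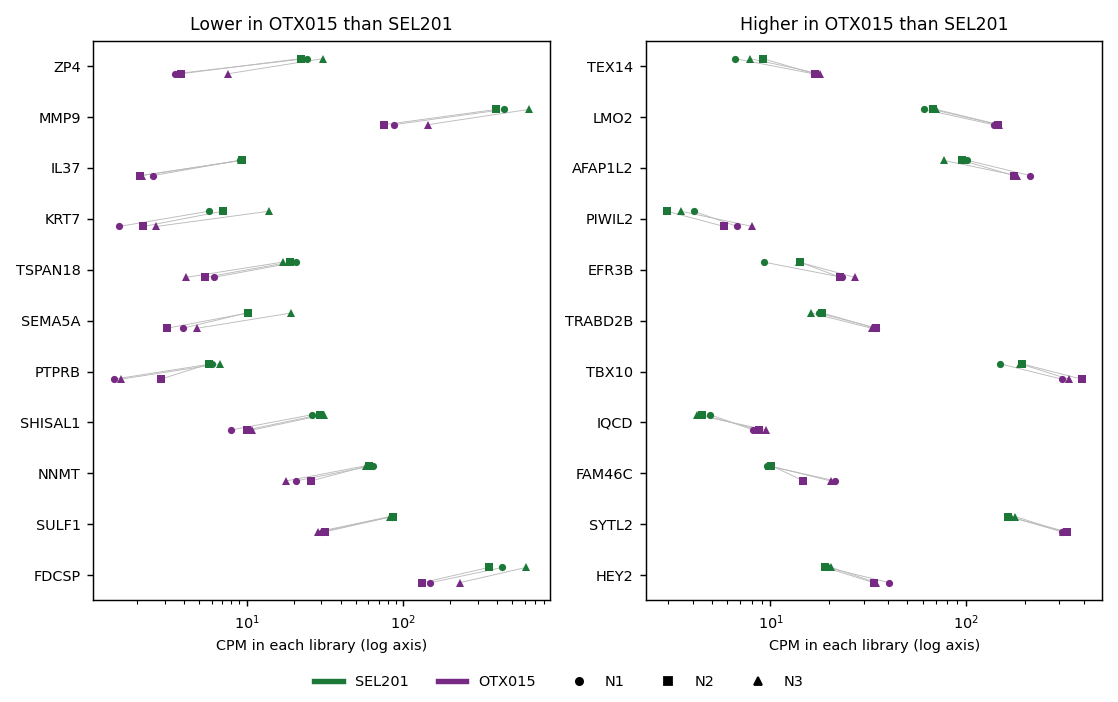
CPM in each SEL201 (green) and OTX015 (purple) library, on a log axis, for genes named among those furthest below and furthest above SEL201 in OTX015. Marker shape gives the replicate number and grey lines join libraries of the same number. For all genes shown the groups do not overlap, and every grey line runs in the direction of its panel.

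Placing each agent against UNTREATED divided the 3414 called genes. OTX015 against UNTREATED changed 5112 of the 8579 genes (59.6%) and SEL201 against UNTREATED 3180 (37.1%), and these calls share the UNTREATED libraries. Of the genes that told the agents apart, 1466 (42.9%) were moved in the same direction by both agents and further by OTX015, of which 638 were raised and 828 lowered. A further 1411 (41.3%) were called with OTX015 only, 694 raised and 717 lowered. SEL201 only accounted for 179 genes (5.24%), 83 raised and 96 lowered. Both agents moved 52 genes in the same direction and SEL201 moved them further, 29 raised and 23 lowered. Opposite directions were called for 63 genes, 28 raised by OTX015 and lowered by SEL201, and 35 the reverse. The remaining 243 genes differed between the agents while neither agent was called against UNTREATED. A gene called with 1 agent only is one whose change under the other missed the threshold, which does not show that it was 0. The classes depended on the block. Without it 281 genes were raised and 423 lowered further by OTX015, fewer than the 499 raised and 597 lowered by OTX015 only, so the order of the 2 main classes turned over. The SEL201-only counts without it were 30 raised and 23 lowered, the opposite-direction counts 2 and 7, and the counts moved further by SEL201 were 3 raised and 4 lowered. With the block kept, the order of the 2 main classes was not stable either. At an adjusted p under 0.01, 394 genes were raised and 597 lowered further by OTX015, against 539 and 610 by OTX015 only. Leaving out any library of SEL201 or UNTREATED, or any replicate number, turned the order over as well. Leaving out an OTX015 library did not.

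The sizes of difference varied between the classes. Among genes lowered by both agents and further by OTX015, the median difference was -0.41 and 64 genes differed by 2-fold or more. Among OTX015-only genes the median was 0.20 for those raised and -0.29 for those lowered, and 8 of the lowered genes reached 2-fold. Among SEL201-only genes the median was -0.19 for those raised and 0.17 for those lowered by SEL201, and none reached 2-fold. The opposite-direction genes were further apart, with medians of 0.37 and -0.54. The choice of class fixes the sign of these medians.

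OTX015-only genes included regulators of Wnt, Hedgehog and complement activity. TRABD2B, a membrane protease that cleaves Wnt proteins, was at 17.6, 18.3 and 16.2 CPM in SEL201 and 34.8, 34.7 and 32.8 CPM in OTX015, against 14.2 to 16.1 CPM in UNTREATED. The OTX015 libraries stood clear of all others of the single-agent and UNTREATED groups, and the difference between the agents was 0.97 ± 0.09 (adjusted p = 2.4e-10). PIWIL2, a germline Argonaute protein that binds piRNAs (0.98), IQCD (0.96), MAFA, an insulin-gene transcription factor (0.81), the matrix protein CCDC80 (0.80) and GALNT12, which starts mucin-type O-glycans (0.76), completed the named raised genes. C1R, a protease of the complement cascade, was at 17.4, 20.5 and 19.1 CPM in SEL201 and 5.70, 8.71 and 7.12 CPM in OTX015 (-1.41 ± 0.12), against 21.3 to 25 CPM in UNTREATED. HHIP, which binds and restrains Hedgehog ligands, was at 13.5 to 16.5 CPM in SEL201 and 5.66 to 7.52 CPM in OTX015 (-1.18). The matrix protein VIT (-1.44), the collagen COL22A1 (-1.29), the homeobox factor LHX8 (-1.16) and the receptor MRGPRX3 (-1.03) followed. C1R left the class without OTX015 N1, and CCDC80 left it without UNTREATED N3.

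SEL201-only genes included a RAS regulator and an immediate early factor. RASAL1, a GTPase-activating protein that switches RAS off, was at 95.8, 94.1 and 101 CPM in SEL201, 65.2, 44.7 and 69.6 CPM in OTX015 and 58.3, 49.9 and 62.9 CPM in UNTREATED. All SEL201 libraries were above all OTX015 and UNTREATED libraries, while OTX015 and UNTREATED overlapped, and the difference between the agents was -0.72 ± 0.07 (adjusted p = 3.9e-09). EGR2, a zinc-finger factor induced by growth factors, was at 29.3 to 39.7 CPM in SEL201 and 17 to 25.2 CPM in OTX015 (-0.66). It left the class without OTX015 N3, SEL201 N3 or UNTREATED N1, although the difference between the agents was called each time. HS6ST3, which adds 6-O sulfate to heparan sulfate, was at 22.1 to 23.4 CPM against 14.4 to 16.7 CPM (-0.56), and it left the class without UNTREATED N2. ZNF536 (-0.59), ANKS1B (-0.57) and the noncoding RNA listed as RF00322 (-0.50) were the other named raised genes. The difference in ANKS1B was not called without OTX015 N2 or SEL201 N1 (log2 differences from -0.72 to -0.34 over all alternatives), and the SEL201 change of RF00322 was not called without SEL201 N3 (adjusted p = 0.053).

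Among genes lowered by SEL201 only, INSIG1, which holds the sterol sensor complex in the endoplasmic reticulum, was at 126, 152 and 107 CPM in SEL201, 190, 181 and 152 CPM in OTX015 and 176, 188 and 140 CPM in UNTREATED. The SEL201 and OTX015 ranges met at N2 of SEL201 and N3 of OTX015, yet each pair differed in the same direction, by 0.60, 0.25 and 0.51 (fitted difference 0.45 ± 0.05, adjusted p = 6.6e-08). LRRC15, a leucine-rich repeat membrane protein, was at 21.5, 23.1 and 24.2 CPM in SEL201 against 32.1, 34.2 and 33.2 CPM in OTX015 (0.54), with UNTREATED at 30.2 to 31.2 CPM. PRICKLE2, a planar cell polarity protein (0.63), RAB3B, a GTPase of regulated secretion (0.55), the sialic-acid receptor CD33 (0.48) and CUZD1 (0.46) were the rest. CUZD1 was not called between the agents without OTX015 N1, OTX015 N3, SEL201 N2 or SEL201 N3 (log2 differences 0.41 to 0.56 over all alternatives), and its SEL201 change was not called without UNTREATED N3 (adjusted p = 0.078). The SEL201 change of RAB3B (-0.36) was lost without SEL201 N3 (adjusted p = 0.14) or UNTREATED N1 (0.10), and also without the replicate block (0.14).

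**Figure D3:**
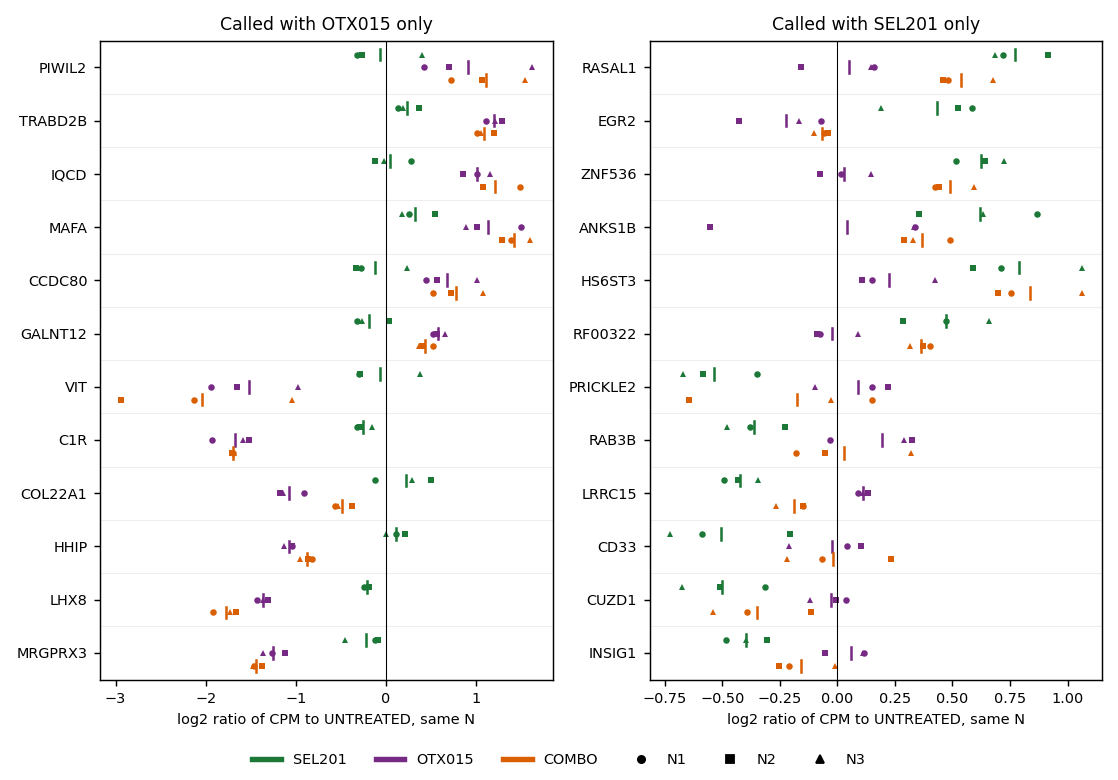
Log2 ratio of CPM in each library to the UNTREATED library of the same replicate number, for genes called with OTX015 only (left) and with SEL201 only (right). Vertical ticks mark the mean of 3. In the left panel the purple points lie away from 0 and the green ones mostly near it, and in the right panel mostly the reverse. Exceptions include the green N2 point of COL22A1, away from 0. For ANKS1B the purple N2 point lies further from 0 than the green one. COMBO (orange) lies mostly near OTX015 in the left panel, but between the agents for COL22A1. It is spread between the agents in the right panel, as for EGR2 near 0 and HS6ST3 near SEL201.

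COMBO libraries, which share no library with the comparison of the agents but do share UNTREATED with the classes, were read for the same genes (COMBO against UNTREATED called 5810 of 8579 genes, 67.7%). By direction, 33.5% of all genes were higher and 34.2% lower in COMBO. Of the 694 genes raised by OTX015 only, 607 were higher in COMBO, and of the 717 lowered, 650 were lower. Of the 83 raised by SEL201 only, 36 were higher and 5 lower in COMBO, and of the 96 lowered, 50 were lower and 2 higher. C1R averaged 6.99 CPM in COMBO and 7.18 in OTX015. HS6ST3 averaged 23.4 CPM in COMBO and 22.6 in SEL201, whereas EGR2 averaged 23.9 CPM in COMBO and 34 in SEL201.

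Opposite directions were clearest for genes that OTX015 lowered and SEL201 raised. LSAMP, a neural cell adhesion protein, was at 109, 95.1 and 103 CPM in UNTREATED, 145, 143 and 150 in SEL201 and 85.9, 79.0 and 90.5 in OTX015. The 3 groups did not overlap. OTX015 lowered it by -0.27 ± 0.05 and SEL201 raised it by 0.51 ± 0.05, and the agents differed by -0.78 (adjusted p = 1.8e-13). ZP4 was at 17.1, 16.6 and 22.7 CPM in UNTREATED, 24.4, 22.2 and 31 in SEL201 and 3.48, 3.79 and 7.57 in OTX015, and the difference between the agents was -2.42 ± 0.14. SCARA5, a scavenger receptor for ferritin (-1.43), SECTM1, a secreted and transmembrane immune ligand (-1.27), the glucosidase MGAM2 (-1.05), the ion exchanger SLC24A2 (-0.94), the phosphatase PPEF1 (-0.84) and MSC, the repressor musculin (-0.83), behaved alike in sign. MGAM2 has a close paralog, so its reads could be divided between copies. For ZP4, SCARA5, SECTM1 and MSC the rise under SEL201 was not called without the replicate block (adjusted p from 0.053 to 0.16), while the difference between the agents was. The fall of SLC24A2 under OTX015 (-0.35, adjusted p = 0.049) was lost without any single library of OTX015 or SEL201 and without UNTREATED N1 or UNTREATED N3 (adjusted p up to 0.25). DESeq2 did not call that fall either (adjusted p = 0.072).

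The reverse pattern had smaller steps. SYTL2, an effector of RAB27 in vesicle transport, was at 201, 202 and 177 CPM in UNTREATED, 166, 163 and 178 in SEL201 and 308, 328 and 314 in OTX015. OTX015 stood well above, whereas SEL201 N3 was level with UNTREATED N3, and the difference between the agents was 0.91 ± 0.05 (adjusted p = 4.3e-16). RGS2, which dampens G-protein signalling, was at 241, 254 and 181 CPM in UNTREATED, 213, 227 and 161 in SEL201 and 332, 333 and 235 in OTX015 (0.58). UNTREATED overlapped both agents across numbers, but within each number the order was OTX015, UNTREATED, SEL201. IL11, a cytokine of the interleukin-6 family, was at 231, 234 and 182 CPM in UNTREATED, 179, 193 and 171 in SEL201 and 267, 279 and 210 in OTX015 (0.47). STAC (0.59), the teneurin TENM1 (0.59), the Wnt ligand WNT9A (0.54), NPC2, which carries cholesterol out of the lysosome (0.48), and the adhesion protein NCAM2 (0.45) were the others. Of these 8 genes, SYTL2 alone kept both directions without the replicate block, and NCAM2 then lost the difference between the agents as well (adjusted p = 0.22). The SEL201 fall of SYTL2 was not called with all N2 libraries left out (-0.14, adjusted p = 0.054). That of WNT9A was not called with all N1 (0.058) or all N2 libraries (0.06) left out. Single libraries also decided calls: the SEL201 fall of STAC (-0.19) was lost without SEL201 N2 (adjusted p = 0.065), SEL201 N3 (0.052) or UNTREATED N2 (0.067), and that of NCAM2 (-0.17) without SEL201 N1 (0.063) or UNTREATED N2 (0.10). The SEL201 fall of NPC2 (-0.10) was lost without SEL201 N1 (0.20), SEL201 N2 (0.21), UNTREATED N2 (0.11), UNTREATED N3 (0.16) or OTX015 N2 (0.050), and the OTX015 rise of TENM1 (0.20) without OTX015 N1 (0.051), OTX015 N2 (0.31), UNTREATED N2 (0.14) or UNTREATED N3 (0.23).

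**Figure D4:**
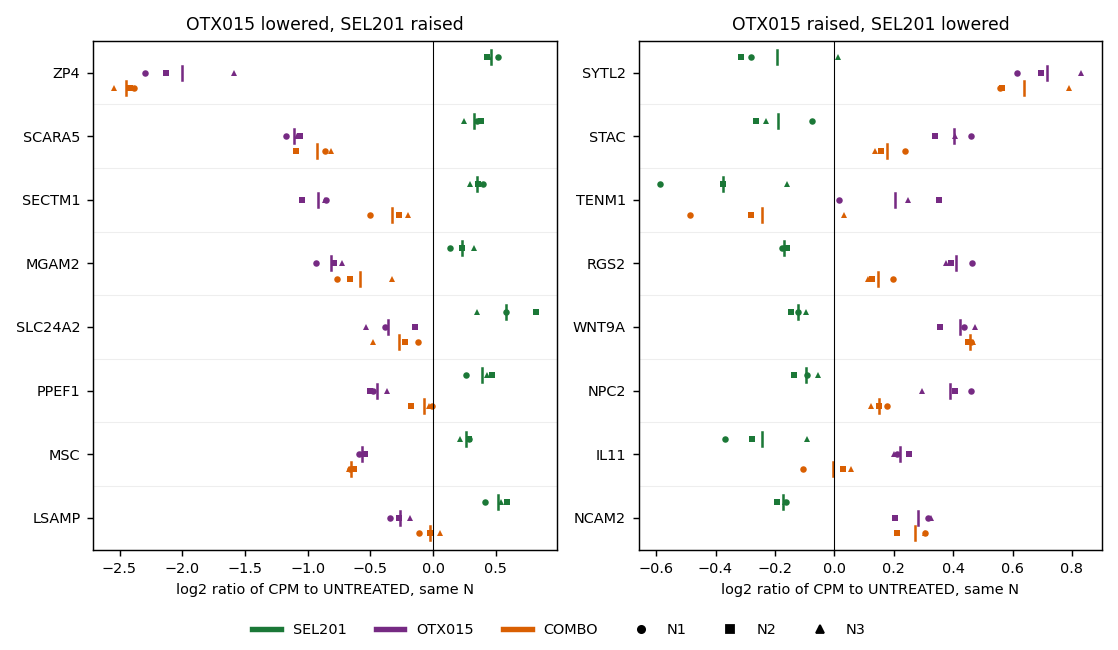
Log2 ratio of CPM in each library to the UNTREATED library of the same replicate number, for 16 genes called in opposite directions. Vertical ticks mark the mean of 3. Green SEL201 points and purple OTX015 points lie on opposite sides of 0, except SYTL2 in SEL201 N3, just above 0. COMBO (orange) is with OTX015 for ZP4 and MSC and near 0 for LSAMP, PPEF1 and IL11.

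In COMBO, the opposite-direction genes split. Of the 35 genes lowered by OTX015 and raised by SEL201, 15 were lower, 3 higher and 17 not called against UNTREATED. Of the 28 in the other direction, 16 were higher, 1 lower and 11 not called. The shares over all genes in COMBO were 33.5% higher and 34.2% lower. LSAMP averaged 100 CPM in COMBO and 102 in UNTREATED, and IL11 averaged 214 and 216 CPM, and the COMBO and UNTREATED libraries overlapped for both genes. ZP4 averaged 3.42 CPM in COMBO, below every UNTREATED library.

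A small set moved further under SEL201. TAC1, the precursor of substance P, was at 26.3, 25.1 and 28.6 CPM in UNTREATED, 39.7, 27.8 and 50.3 in OTX015 and 71.1, 63.3 and 82.4 in SEL201 (-0.90 ± 0.08, adjusted p = 7.9e-11). Every SEL201 library exceeded every OTX015 library. ANKRD1, a target of the YAP coactivator, was lowered by both agents from 42.2, 59.9 and 61 CPM in UNTREATED. It was at 20.7, 26.9 and 34.1 CPM in OTX015 and at 14.1, 16 and 23.3 CPM in SEL201. The fitted difference between the agents was 0.62, with overlapping groups and an adjusted p of 0.053 without the replicate block. The melanosome transport gene MLPH (0.53, not called without SEL201 N3), the sterol carrier STARD4 (0.31), the elongation factor ELL2 (0.29) and SPP1, osteopontin (0.29, not called without SEL201 N2), were also lower in SEL201 than in OTX015 and in both than in UNTREATED. NGFR, the nerve growth factor receptor of neural crest cells, belonged here too, at a mean of 31.8 CPM in SEL201 and 41.2 in OTX015 from 64.9 in UNTREATED, with overlapping groups (0.41, adjusted p = 0.26 without the block). The STARD4 and SPP1 differences likewise had adjusted p of 0.20 and 0.084 without it.

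TGM2, the transglutaminase named in the title of the study, told the agents apart by little. Its level was 620, 605 and 873 CPM in UNTREATED, 211, 194 and 286 in SEL201 and 222, 215 and 298 in OTX015. The agents' groups overlapped, and the difference was 0.09 with a 95% interval of 0.02 to 0.17 (adjusted p = 0.036, and 0.75 without the replicate block). That call was also lost without OTX015 N1, OTX015 N2, OTX015 N3, SEL201 N2 or SEL201 N3, so the call rests on the block and on single libraries. TGM1 was at 8.31 CPM in SEL201 and 6.61 in OTX015 (-0.34, adjusted p = 0.082).

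Of the 28 gene lists, those for the agents' own machineries held few measured members, and their counts stand against 18.7% higher and 21.1% lower over all genes. In the BET and P-TEFb list 2 of 6 differed, AFF1, a scaffold of the super elongation complex (0.24), and ELL2, and CCNT2, HEXIM2, LARP7 and ELL were not called (0.04, 0.07, -0.08 and 0.04). In the MNK and eIF4F list all 3 differed. MKNK1, which encodes MNK1, was at 246 ± 11.9 CPM in SEL201 and 291 ± 5.54 in OTX015 (SD, n = 3, log2 difference 0.24). MAPK3, which encodes ERK1, was at 301, 323 and 266 CPM against 239, 245 and 217 (-0.34). EIF4A1, the cap-complex helicase, differed by 0.26 with overlapping groups, and not without OTX015 N2 or SEL201 N2 or the block (adjusted p = 0.42). Polyadenylated histone transcripts were higher in OTX015 for 8 of 9 measured members, with none lower (median 0.50, shares of all genes 18.7% and 21.1%). Both agents raised these transcripts against UNTREATED, OTX015 all 9 and SEL201 8, with none lowered by either. Over all genes OTX015 raised 29.65% and SEL201 17.96%. HIST1H2BD was at 29.4, 27 and 32.4 CPM in SEL201 and 50.2, 48.4 and 61.7 in OTX015 (0.85), HIST1H2BC differed by 0.79 and HIST2H2BE by 0.67, and reads of these near-identical genes could be divided between copies.

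Immune gene groups were lower in OTX015 than in SEL201, and both agents lowered many of their members against UNTREATED. SEL201 lowered 28 of 36 interferon-stimulated genes, 5 of 10 antigen processing genes and 10 of 16 NF-kB response and cytokine genes, and raised 2, 0 and 1. OTX015 lowered 31, 10 and 12 and raised 3, 0 and 1. Over all genes SEL201 lowered 19.1% and OTX015 29.9%. Between the agents, 28 of the 36 interferon-stimulated genes were lower in OTX015 and 2 higher (median -0.43, against 0 for all genes and a share of 21.1% lower). GBP1, an interferon-induced guanylate-binding GTPase, was at 51.4, 48.1 and 44.9 CPM in SEL201 and 24.6, 20.9 and 27.3 in OTX015 (-1.0 ± 0.08). The RNA sensor IFIH1 (-0.94), the oligoadenylate synthetase OAS2 (-0.94), GBP2 (-0.89), the exonuclease ISG20 (-0.49) and PARP14 (-0.43) were lower in the same way. The 2 higher genes were IRF7 and IFI6, named after their values were seen, at 0.37 and 0.18. Without the block 20 were lower and 1 higher. In antigen processing 9 of 10 were lower and none higher (median -0.32). CTSS, the cathepsin that trims the class II invariant chain, was at 333, 317 and 408 CPM against 125, 134 and 158 (-1.35), the immunoproteasome subunits PSMB8 and PSMB10 differed by -0.46 and -0.39, the peptidase ERAP2 by -0.66, HLA-F by -0.50 and the peptide transporter TAP1 by -0.20 (adjusted p = 0.074 without the block). Among NF-kB response and cytokine genes 13 of 16 were lower and 1, IL11, was higher (median -0.47). The chemokine CCL2 was at 532, 545 and 601 CPM against 227, 250 and 291 (-1.13), the prostaglandin synthase PTGS2 differed by -0.80, the chemokine CXCL3 by -0.63 and the cytokine IL24 by -1.08, the last with overlapping groups and an adjusted p of 0.095 without the block. The summed level of the measured markers of other cell types was lower in OTX015 as well, with the stromal genes LUM (-1.33) and DCN (-1.15) and the lysozyme gene LYZ (-0.42) lower and PDGFRA not called (0.21), and the part of this in the immune groups was not tested.

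Promoter sequences are shown for some genes named above because the agents' direction differs between them. They cover 250 bases before the RefSeq start of each gene in GRCh38.p14, 5′ to 3′ on the gene's strand. For IFIH1 (chr2:162318685-162318934, minus strand) and GBP1 (chr1:89065209-89065458, minus strand), lowered further by OTX015, capitals mark matches to GAAANNGAA on either strand, the core of an interferon response element.
IFIH1: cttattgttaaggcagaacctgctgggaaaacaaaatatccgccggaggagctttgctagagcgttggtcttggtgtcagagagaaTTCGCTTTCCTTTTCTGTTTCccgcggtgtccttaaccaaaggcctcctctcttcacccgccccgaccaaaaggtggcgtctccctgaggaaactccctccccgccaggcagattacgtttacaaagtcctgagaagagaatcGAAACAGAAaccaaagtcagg
GBP1: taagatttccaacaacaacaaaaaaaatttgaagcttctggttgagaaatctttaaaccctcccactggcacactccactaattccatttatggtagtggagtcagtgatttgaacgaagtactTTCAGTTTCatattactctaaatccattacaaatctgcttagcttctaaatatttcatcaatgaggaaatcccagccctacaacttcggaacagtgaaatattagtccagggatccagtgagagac
IFIH1 held 4 matches, 3 of them overlapping, and GBP1 held 1, which began 126 bases before the start. Of the 36 measured interferon genes 27 had a promoter in the table, and 14 of these (51.9%) held the motif. Over all tested genes 309 of 5774 with a promoter (5.35%) held it. For IL11 (chr19:55370464-55370713, minus strand) and LRRC15 (chr3:194369744-194369993, minus strand), lower in SEL201 than in OTX015 and UNTREATED, capitals mark TGANTCA, the AP-1 motif.
IL11: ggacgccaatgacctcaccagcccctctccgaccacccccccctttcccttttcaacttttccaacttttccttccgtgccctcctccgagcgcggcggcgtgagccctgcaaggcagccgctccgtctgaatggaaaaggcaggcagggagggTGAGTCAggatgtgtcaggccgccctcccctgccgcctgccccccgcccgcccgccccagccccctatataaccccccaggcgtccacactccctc
LRRC15: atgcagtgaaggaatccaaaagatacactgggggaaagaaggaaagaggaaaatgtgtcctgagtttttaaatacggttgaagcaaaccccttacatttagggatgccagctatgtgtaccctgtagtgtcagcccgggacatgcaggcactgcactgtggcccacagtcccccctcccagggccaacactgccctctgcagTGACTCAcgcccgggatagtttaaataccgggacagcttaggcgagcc
The matches began 96 and 48 bases before the starts. Most other named genes lowered by SEL201, alone or with a rise under OTX015, did not hold the motif where a promoter was found. RAB3B held it, and PRICKLE2, CD33, CUZD1, INSIG1, STAC, TENM1, RGS2, WNT9A, NPC2 and NCAM2 did not. Of all tested genes with a promoter, 252 (4.36%) held TGANTCA. The motif was not limited to genes low in SEL201: 23 of 232 promoters (9.91%) of genes lower in OTX015 by 1.5-fold held it, and 3 of 43 (6.98%) of genes higher by 1.5-fold. These pairs of genes were chosen after their values and matches were seen. A match is a run of letters and not a measured site, and promoters were found for 67.3% of the tested genes and 75.0% of the interferon list, so the shares are descriptions and a comparison of them is void.

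Epithelial genes and some matrix genes were lower in OTX015. The list counts given here stand against 21.1% lower and 18.7% higher over all genes. Of 11 measured keratin and epithelial genes 8 were lower in OTX015 and none higher (median -0.30), and without the block 6 were lower. Against UNTREATED, OTX015 lowered 11 of them and SEL201 10, with none raised by either agent (29.9% and 19.1% of all genes were lowered). KRT80, a keratin of differentiating epithelia, was at 220, 220 and 376 CPM in SEL201 and 93.7, 98.0 and 152 in OTX015 (-1.24), from an UNTREATED mean of 898 CPM. CLDN1, a tight-junction claudin (-1.16), KRT81 (-1.22), KRT14 (-0.59) and CLDN4 (-0.30) were lower too, and KRT81 has near-identical hair keratin copies between which reads could be divided. Among 10 matrix genes 4 were lower and 3 higher, and without the block 4 were lower and none higher. Both agents lowered most of the 10 against UNTREATED. OTX015 lowered 8 and raised 2, and SEL201 lowered 8 and raised none. Over all genes OTX015 raised 29.65% and SEL201 17.96%. The collagens COL12A1 (-0.82), COL8A1 (-0.58) and COL6A3 (-0.42) and the fibulin FBLN1 (-1.0) were lower, and the collagenase MMP1 was higher, at 242, 273 and 115 CPM in SEL201 and 301, 400 and 141 in OTX015. Its N3 libraries were low in both groups, so the groups overlapped, but each pair moved the same way (0.39, and adjusted p = 0.50 without the block). The invasive-state list split as well, 3 of 9 higher and 4 lower, with the kinases NUAK1 (-0.53) and NUAK2 (-0.37) and the Wnt antagonist DKK1 (-0.26, adjusted p = 0.52 without the block) lower, and CTGF, another YAP target, higher (0.40, adjusted p = 0.12 without the block). Without the block none of the 9 was higher and 2 were lower. Here too most members fell under both agents against UNTREATED. OTX015 lowered 7 of the 9 and raised 1, and SEL201 lowered 8 and raised 1.

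Sterol synthesis genes were the largest list with no member lower in OTX015. Of 14 measured, 9 were higher and none lower (median 0.14, share of all genes higher 18.7%). SQLE, squalene epoxidase, was at 317, 341 and 306 CPM in SEL201 and 415, 396 and 402 in OTX015 (0.33), and its level in UNTREATED, a mean of 315 CPM, was that of SEL201. MVD (0.21), HSD17B7 (0.22) and MSMO1 (0.21) were the other named enzymes. INSIG1 and STARD4, described above, are targets of the same sterol-responsive factors. MSMO1, like INSIG1, was called as lowered by SEL201 only, while SQLE, MVD and HSD17B7 were called as raised by OTX015 only. Without the block 6 of the 14 were higher.

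The amino acid stress list moved the other way. Of 13 measured ATF4 target genes 7 were lower in OTX015 and 1 higher (median -0.25), against 21.1% lower and 18.7% higher over all genes. The higher gene, named after its value was seen, was CTH, the next enzyme of the same route as CBS (0.16, adjusted p = 0.033). Neither agent was called for CTH against UNTREATED. Without the block 5 of the list were lower and none higher, and at an adjusted p under 0.01 none was higher either. CBS, which makes cystathionine from homocysteine, was at 387, 386 and 289 CPM in SEL201 and 274, 256 and 204 in OTX015 (-0.53), with a mean of 343 CPM in UNTREATED. ALDH1L2 of mitochondrial folate metabolism (-0.35), STC2 (-0.33), the proline enzyme PYCR1 (-0.25) and the stress cytokine GDF15 (-0.60) were lower, and so was PCK2 (-0.31, adjusted p = 0.11 without the block). For ALDH1L2, PCK2 and CTH the groups overlapped. CBS, ALDH1L2, PYCR1 and PCK2 were called with OTX015 only.

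Signalling lists held genes of both directions. Of 12 measured MAPK feedback and immediate early genes 6 were higher and 3 lower in OTX015 (median 0.10, shares of all genes 18.7% and 21.1%). Without the block 3 were higher and 1 lower, and the lower count ran from 1 to 4 when libraries or numbers were left out. FOS (0.46), FOSB (0.33) and the ERK phosphatase DUSP5 (0.31) were higher, and EGR2 was lower, so members of the EGR family differed in sign: EGR1 was at 334, 406 and 306 CPM in SEL201 and 445, 446 and 374 in OTX015 (0.28), with overlapping groups, and EGR3 differed by 0.21 (adjusted p = 0.064 and 0.12 without the block). DUSP5 is a gene of opposite direction, at 312 CPM in SEL201, 388 in OTX015 and 345 in UNTREATED. Of 16 TGF-beta, BMP and ID genes 8 were higher and 3 lower (median 0.11), with 4 and 1 without the block and 5 to 8 higher when libraries or numbers were left out. ID2, an inhibitor of bHLH factors, was at 51.4, 42.7 and 42.5 CPM against 92.0, 76.4 and 70 (0.80), with the ligand BMP6 (0.55), the coreceptor TGFBR3 (0.46) and the receptor ACVR1 (0.23) higher. ID4 was higher too (0.52, adjusted p = 0.054 without the block). FST, follistatin, which binds activins, was at 75.4, 76.1 and 59.2 CPM against 27.1, 24.7 and 24.9 (-1.45).

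Of 18 neuronal and synaptic genes 8 were higher and 4 lower (median 0.18). GAP43 (0.57), the neurexin NRXN3 (0.52), the tubulin TUBB3 (0.37) and the kinesin KIF5C (0.25) were higher, and the axonal kinesin KIF1A was lower, at 227, 227 and 238 CPM in SEL201 and 123, 130 and 130 in OTX015 (-0.86). Of 9 melanocytic genes 22.2% were higher and 22.2% lower, near the 18.7% and 21.1% of all genes. The 2 higher were S100B (0.38) and MLPH and the 2 lower RAB27A (-0.29) and GPNMB (-0.18, adjusted p = 0.077 without the block). MITF differed by 0.01.

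Cell-cycle and death genes showed no common direction between the agents. The shares over all genes were 18.7% higher and 21.1% lower in OTX015. Few of them were measured, 3 of 40 listed mitosis genes, none of which was called, and 9 of 44 listed replication genes, of which 1 was higher and 3 lower. E2F2, a cell-cycle transcription factor, was at 169 ± 7.44 CPM in SEL201 and 99.3 ± 6.45 in OTX015 (SD, n = 3, log2 difference -0.77), with UNTREATED at 179 to 182 CPM. CCNE1, cyclin E, was higher in OTX015 by 0.17, and POLE2 (-0.24) and GINS3 (-0.15) were lower. Of 14 p53 target and CDK inhibitor genes 4 were higher and 4 lower, and without the block 2 and 1, with CDKN1C at -0.52, PLK3 at 0.38, TP53I3 at 0.19 and FDXR at -0.20 (adjusted p = 0.075 without the block). In the BCL2 family 1 of 13 was higher, the death activator BCL2L11 (BIM, 0.31), and 4 were lower, among them the survival protein BCL2A1 (-0.67), BID (-0.18) and BAK1 (-0.14). In the NRF2 list 3 of 8 were lower, among them the transporters ABCC2 (-0.37) and ABCC3 (-0.35), and HMOX1 was higher (0.30, adjusted p = 0.11 without the block). Of 4 glycolysis genes ALDOC was higher, at 111, 113 and 80.7 CPM against 180, 172 and 132 (0.67), and SLC2A3 was lower (-0.26, adjusted p = 0.18 without the block). In the respiratory chain list 2 of 14 were higher and 3 lower, near the shares of all genes, and the lower count ran from 0 to 3 when libraries or numbers were left out. In the lysosome list 5 of 15 went each way (4 to 5 higher and 3 to 5 lower over the same fits), with NEU1 (0.29) and NAGLU (0.21) higher and CTSF (-0.28) and CTSK (-0.55) lower. Neither of the 2 measured translation factors nor the 1 measured ribosome biogenesis gene was called.

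**Figure D5:**
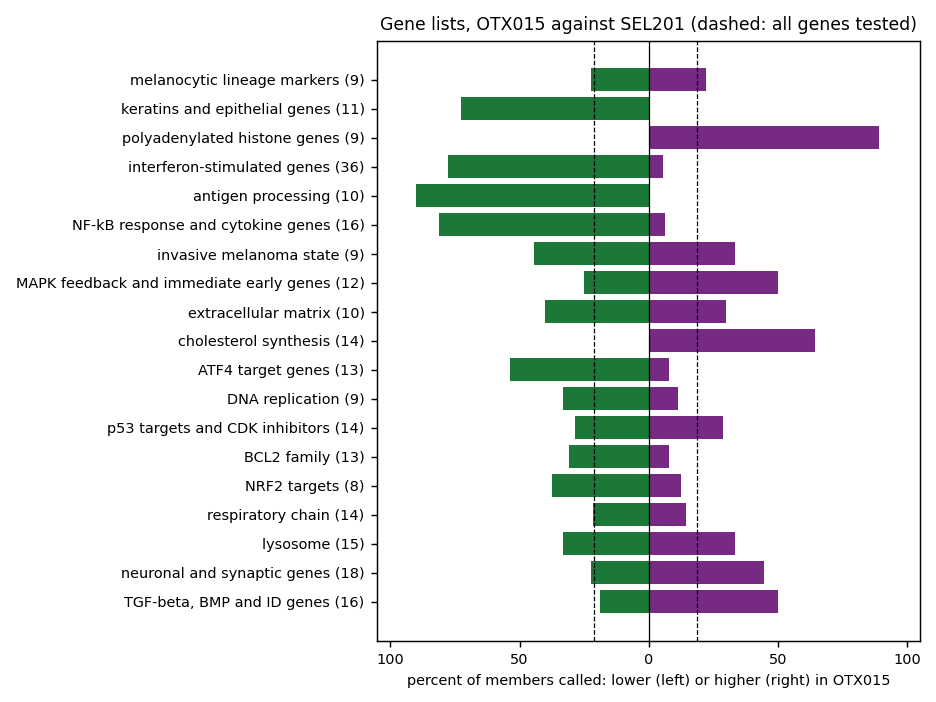
Percent of measured members called lower (green, left) or higher (purple, right) in OTX015 than in SEL201, for lists with at least 8 measured members, whose number is in brackets. Dashed lines mark the shares over all genes tested, 21.1% lower and 18.7% higher. Bars to the left are long for antigen processing, NF-kB, interferon and keratin lists, and to the right for histone and cholesterol synthesis lists.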

How the data were processed

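Poly(A) RNA of A375 cells was sequenced on 12 libraries, 3 per group (stranded kit, paired-end reads, per the labels). The submitters' processing notes list hg19 as the build and, without roles, featureCounts, STAR 2.5.4b, DESeq2, Trimmomatic, FastQC and SAMtools 1.9. Sources used here do not give the annotation or the strand setting of the counting. The authors deposited whole-number counts per gene without normalization, already limited to genes with mean counts from 78.67 to 9158.7. Column totals (ranges in the report) are sums over those genes and not sequencing depth.

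Counts were fitted with edgeR 4.0.16 (R 4.3.3): TMM scaling, filterByExpr, which kept all 8579 genes, group means over all 12 libraries with the replicate number as a block (6 residual degrees of freedom), quasi-likelihood tests and Benjamini-Hochberg adjustment over 8579 genes, threshold 0.05. SE is the log2 difference divided by the square root of F. The numbers were taken as pairs because deviations of same-numbered OTX015 and SEL201 libraries correlated at r = 0.263 to 0.542 (3 pairs) and differently numbered ones at -0.462 to 0.121. The biological coefficient of variation was 4.35% with the block and 7.92% without. None of the 6 within-group pairs of OTX015 and SEL201 libraries agreed within sampling noise, and other pairs were not tested. In simulated OTX015 and SEL201 counts for 8579 genes, 64% of genes changed 1.25-fold, 92% at 1.5-fold and 100% at 2-fold were recovered. There, 50 genes were changed at each fold, counts were drawn with the spread of the blocked fit, and 11 unchanged genes were called. Far more genes, 3414, were called in the data, so recovery there can differ.

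Named genes were, per direction, the 12 largest log2 differences between the agents among called genes with at least 5 CPM and 3 concordant pairs, the 6 largest per one-agent class and the 8 largest per opposite class, plus TGM2, all measured members of the BET, MNK and transglutaminase lists and, from every other list, at most 6 members ranked by p. Antisense, clone-based and other unnamed genes were passed over, and some genes that the rule selects are not reported here. The comparison, the 28 lists and their members were chosen with earlier results of these data known. The list of aminoacyl-tRNA synthetases had no measured member. Lists are described by counts and medians without a set test. Alternatives were no block, RLE factors, DESeq2 1.42.0, 2 other filters, only the groups compared, a threshold of 0.01, and leaving out each library or number.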

Additional observations from a re-analysis of the deposited data

How the results depend on the processing

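Between the agents, 166 named genes were refitted under 19 alternatives. None of the 3154 values changed sign, 54 lost the call and 4 gained it. Many of these genes were named for large called differences with 3 concordant pairs or for a low p, which made a change of sign unlikely beforehand. The settings of no filter and of a threshold of 0.01 also keep the log2 values of the main fit. For 90 called changes of named genes against UNTREATED, 104 of 1710 values lost the call and none changed sign. RLE factors, DESeq2 and the stricter filter moved no count by over 1.5 times. Fitting only the groups compared moved some counts within lists but no count over all genes. The fit with no filter repeated the main fit, because filterByExpr kept all 8579 genes, so its equal counts test nothing. Without the replicate block the counts higher and lower in OTX015 were 893 and 1125, the SEL201-only counts 30 and 23, the opposite-direction counts 2 and 7, the counts raised and lowered further by OTX015 281 and 423, and further by SEL201 3 and 4, and 65 genes were lower with neither agent called. Of 54 list counts, 20 moved by over 1.5 times without it, and over all alternatives 75 of 1026 values did. Leaving out libraries or numbers took the lower count of the respiratory chain list from 3 to 0, of lysosome from 5 to 3 and of MAPK from 3 to 1, and the higher count of p53 from 4 to 2 and of TGF-beta from 8 to 5. At an adjusted p under 0.01 the SEL201-only counts were 44 and 48, the opposite counts 8 and 20, raised further by OTX015 394, and raised and lowered further by SEL201 9 and 11. Leaving out a library or a number gave 1126 to 1637 genes higher and 1417 to 1821 lower, and 5 to 9 higher by 2-fold. Over these fits the SEL201-only counts were 43 to 90 raised and 54 to 95 lowered, the opposite counts 8 to 26 and 20 to 32, raised further by OTX015 350 to 571, raised and lowered further by SEL201 13 to 25 and 12 to 25, and with neither agent called 64 to 209 higher and 72 to 179 lower. The SEL201-only counts were 52 raised and 62 lowered without SEL201 N2, genes higher by 2-fold 8 without SEL201 N1 or N2, raised further by OTX015 419 without SEL201 N1, and OTX015-raised opposite genes 14, 17, 11 and 14 without SEL201 N1, UNTREATED N1, N2 and N3. Opposite genes lowered by OTX015 were 23 without SEL201 N1, and genes raised further by SEL201 15, 15 and 19 without OTX015 N1, OTX015 N2 and SEL201 N2. Genes higher with neither agent called were 64 without SEL201 N2 and 209, 194 and 200 without UNTREATED N1, N2 and N3, and those lower were 72 without OTX015 N3, 78 without SEL201 N2 and 179 without UNTREATED N3. The cause of these shifts was not tested, beyond the fewer libraries fitted.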
